A study of Mus musculus with 35 samples.

Results

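G-NHA9Midi and G-NHA9Midi-21FGAA are shortened forms of the leukemia fusion protein NUP98-HOXA9 that differ in their phenylalanine-glycine (FG) motifs alone. Both carry a green fluorescent tag (mEGFP), lack the GLEBS domain, and join the C-terminal part of the NUP98 FG region to the DNA-binding homeodomain part of HOXA9. In the sequences of the study's bacterial expression constructs, the NUP98-derived and HOXA9 parts of both span 383 residues. The sequences of the constructs used in the cells were not read. G-NHA9Midi holds 21 FG motifs, 6 of them within GLFG repeats, and G-NHA9Midi-21FGAA holds 0, since each was changed to a pair of alanines. The comparison therefore set an FG valence of 21 against 0 in proteins of the same length. It used 10 of the 35 RNA-seq libraries of the series, 5 for each construct, and covered every gene.

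Lineage-negative hematopoietic stem and progenitor cells (HSPCs), from the bone marrow of male and female C57Bl/6 mice, were transduced with lentivirus. They were cultured with cytokines that included stem cell factor and IL3, and then sorted for the fluorescent markers. The sorted cells grew for a week in a methylcellulose colony medium that held myeloid and erythroid growth factors, with GM-CSF added. The vector also carried mCherry, and the empty vector cells were sorted for it alone. The other groups were an empty vector, full-length G-NHA9, its 21FGAA and 8FA mutants, and a mutant of its DNA-binding domain (G-NHA9-ΔDNA). The labels give the mice an age of 8 weeks, except for empty vector replicates 4 (9 weeks) and 5 (10 weeks) and G-NHA9 replicate 1 (11 weeks). The transgene was delivered by virus and not expressed from the Nup98 locus. The labels do not say whether the 5 libraries of a group came from separate mice or cultures, so p-values measure the spread between these libraries. The paper describes cells isolated in parallel and replicate transductions with each virus. The number of transductions it gives is not 5, and it does not link them to the libraries. In bulk RNA, fewer cells of a type and less RNA per cell cannot be told apart.

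NUP98 is a nuclear pore protein whose FG motifs make weak, repeated contacts with each other and with other proteins. Fused to a homeodomain, this region is known to gather at chromatin and to keep HOXA cluster genes and their partners on in immature myeloid cells. The culture medium supports several blood lineages, and each leaves its own transcripts: globins and membrane proteins in erythroid cells, platelet proteins in megakaryocytes, proteases in mast cells, basic granule proteins in eosinophils, and serine proteases in early granulocytes. GATA factors drive the first 4 of these programs, and CEBP and GFI1 factors the granulocyte one.

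Promoter sequences of genes from the lineage, interferon, amino acid, STAT5 target and homeobox lists are shown first, so that the letters can be set beside the values. Holding the searched motif was a condition for being shown. Of the changed members of a list with the motif, the gene with the largest absolute log2 fold change was taken. Each sequence is 100 bases, 5′ to 3′ on the strand of the gene, from the RefSeq promoter window of its start site (GRCm38.p6), with capitals for the searched motif on either strand.
Epb42 (chr2:121037028-121037127, minus strand): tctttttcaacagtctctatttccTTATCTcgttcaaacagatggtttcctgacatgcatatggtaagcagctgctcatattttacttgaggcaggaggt
Mcpt1 (chr14:56017820-56017919, plus strand): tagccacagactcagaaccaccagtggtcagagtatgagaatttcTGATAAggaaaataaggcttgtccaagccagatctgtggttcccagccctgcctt
Gp1ba (chr11:70638973-70639072, plus strand): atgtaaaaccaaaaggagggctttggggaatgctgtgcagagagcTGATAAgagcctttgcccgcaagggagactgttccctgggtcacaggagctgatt
Prg3 (chr2:84988047-84988146, plus strand): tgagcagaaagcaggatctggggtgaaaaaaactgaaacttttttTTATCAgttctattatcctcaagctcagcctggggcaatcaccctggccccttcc
Rsad2 (chr12:26456518-26456617, minus strand): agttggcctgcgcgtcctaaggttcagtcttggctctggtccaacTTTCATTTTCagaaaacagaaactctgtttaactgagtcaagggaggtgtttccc
Chac1 (chr2:119351004-119351103, plus strand): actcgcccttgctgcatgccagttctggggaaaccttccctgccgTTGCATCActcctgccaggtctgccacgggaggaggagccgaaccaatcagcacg
Csn2 (chr5:87699464-87699563, minus strand): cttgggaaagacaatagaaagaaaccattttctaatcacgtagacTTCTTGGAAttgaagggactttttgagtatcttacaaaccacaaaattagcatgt
Hoxa2 (chr6:52164888-52164987, minus strand): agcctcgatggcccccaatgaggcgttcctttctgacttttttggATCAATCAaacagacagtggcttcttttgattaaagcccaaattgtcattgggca

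In Epb42, Mcpt1, Gp1ba and Prg3 the capitals mark a GATA motif, searched as AGATAA or TGATAA. They mark GAAA and GAAA with any 2 bases between them (an interferon-response element) in Rsad2, TGATGNAA (an ATF4-type element) in Chac1, TTCNNNGAA (a STAT element) in Csn2, and TGATTTAT or TGATTGAT (a HOX-PBX element) in Hoxa2. Both strands were searched over 300 bases, from 250 before to 50 after the start, in the 27025 genes with a promoter in the table. The GATA letters were in 64.7% of the mast cell promoters (11 of 17), 50% of the erythroid transcription factor promoters (6 of 12), 44.4% of the eosinophil promoters (4 of 9), 42.9% of the red cell membrane promoters (6 of 14), 37.5% of the megakaryocyte promoters (6 of 16) and 30% of the heme synthesis promoters (3 of 10), against 21% of all genes. The interferon letters were in 60% of the interferon-stimulated promoters (12 of 20), against 3.99% of all genes, and the ATF4 letters in 46.7% of the amino acid stress promoters (7 of 15) and 9.09% of the serine and one-carbon promoters (1 of 11), against 4.51%. The STAT letters were in 30% of the STAT5 target promoters (3 of 10), against 9.55%, and the HOX-PBX letters in 10% of the Hox promoters (1 of 10), against 1.99%. A match describes letters and not a bound site.

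Hoxa9 and Nup98, the genes that make the fusion, were read first. Values are CPM, the counts of a gene relative to the scaled total of its library, and are listed for replicates 1 to 5. Hoxa9 (chr6:52223100-52231089, minus strand) was at 30.6, 44.4, 37.8, 25.5 and 34.5 CPM in G-NHA9Midi and 1.23, 2.18, 1.19, 0.73 and 0.242 CPM in G-NHA9Midi-21FGAA. All 5 mutant libraries lay below all 5 G-NHA9Midi libraries (log2 fold change -4.98 ± 0.38 SE, edgeR adjusted p = 2.7e-12), and the empty vector group was at 0.975 ± 0.221 CPM (SD, n = 5). Nup98 was at 171, 177, 163, 140 and 186 CPM in G-NHA9Midi and 143, 118, 111, 156 and 157 CPM in G-NHA9Midi-21FGAA. The Nup98 groups overlapped, and its fold was small (log2 fold change -0.29 ± 0.12 SE, edgeR adjusted p = 0.049). That call was lost in 13 of 18 other settings, including without any 1 of G-NHA9Midi replicates 1, 2, 3 and 5 or mutant replicates 1, 2 and 3. Summed, Hoxa9 and Nup98 were at 202 ± 22.7 CPM in G-NHA9Midi, 138 ± 20.7 CPM in the mutant and 130 ± 12.4 CPM in the empty vector (SD, n = 5). Counts of both genes can hold reads of the construct, which cannot be told apart from the mouse transcripts, so they do not measure the amount of fusion protein. Whether the amount of construct RNA differed between the groups was not tested.

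The 10 libraries held 32201151 to 75810659 counts on genes. A count of 0 in 1 of these libraries allows up to 3 counts, or 0.0382 to 0.09 CPM, by counting error alone. Correlations of log2 CPM were at least 0.981 within a group and 0.93 to 0.957 between the groups. A Y-linked transcript was lower in 1 mutant library: Eif2s3y was at 3.69 CPM in replicate 4, against 9.62 to 19.7 CPM in the other four and 11.8 to 19.8 CPM in G-NHA9Midi. None of 5 sex-linked genes passed the test. The progenitor markers Kit and Cd34 had counts in every library, from 39.3 CPM upward for Kit, but so did genes of mature phagocytes: Lyz2 was at 4694 to 21473 CPM. Of 10 B cell and 10 T and NK cell genes, 7 and 4 were too low to test.

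Of 17166 genes tested, 3597 (21.0%) were higher and 3819 (22.2%) were lower in G-NHA9Midi-21FGAA at an adjusted p under 0.05. Over these genes the log2 fold change had a median of -0.02, a 5th percentile of -1.24 and a 95th of 1.95. Among the changed genes, 2907 differed by at least 1 on the log2 scale, 1764 higher and 1143 lower. The 5 libraries of one group lay outside the range of the other for 5170 tested genes (30.1%). Counts over gene lists are to be read against these shares. Where a list had 1 to 5 members called in a direction, leaving out single libraries often moved that count by 1 or 2.

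**Figure D1:**
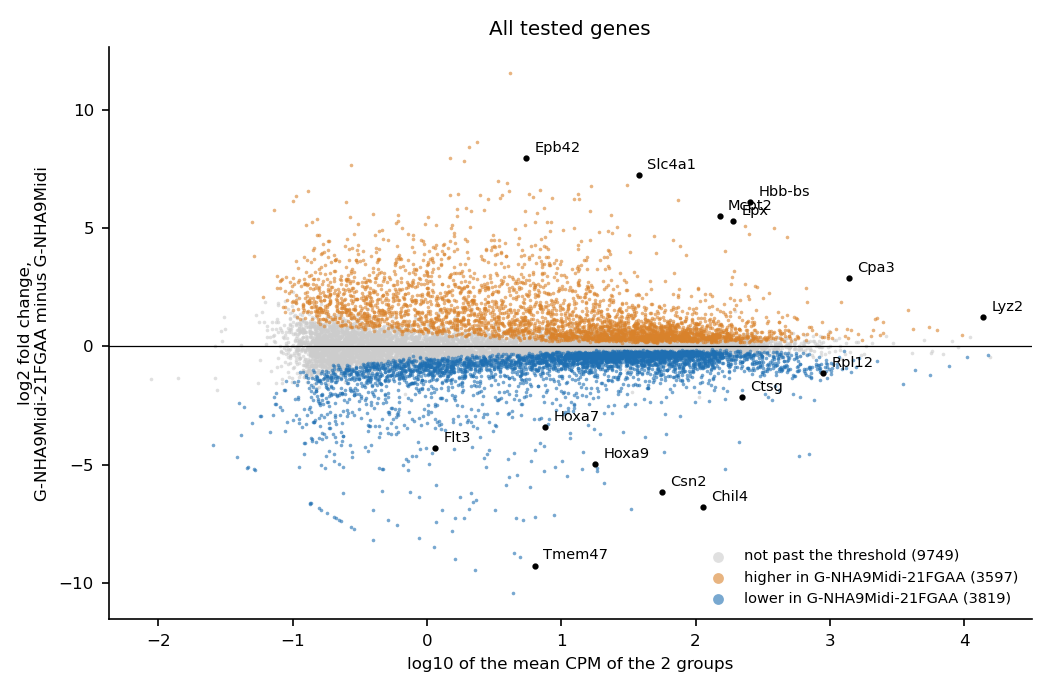
Each point is a tested gene, with its mean level over both groups (log10 CPM) across and its log2 fold change, G-NHA9Midi-21FGAA minus G-NHA9Midi, upward. Orange points (3597) were higher and blue points (3819) lower, grey points did not pass the threshold, and the upper edge holds erythroid, eosinophil and mast cell genes such as Slc4a1, Epx and Mcpt2.

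The Hox cluster was lower in the absence of FG motifs. Hox genes encode homeodomain transcription factors, and the A cluster is known to be active in stem cells and in leukemia with NUP98 fusions. Of 21 tested Hox genes, 14 fell (66.7%), none rose, and the median log2 fold change was -1.98. Their summed level was 71.3 ± 11.3 CPM in G-NHA9Midi, 8.6 ± 1.3 CPM in the mutant and 8.8 ± 1.1 CPM in the empty vector (SD, n = 5). Hoxa9, which can hold construct reads, made up 34.6 and 1.12 CPM of the first 2 sums.

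Hoxa7, the neighbour of Hoxa9 in the cluster, was at 15.2, 15.5, 15.5, 10.7 and 12.7 CPM in G-NHA9Midi and 1.47, 1.71, 1.9, 1.1 and 0.395 CPM in G-NHA9Midi-21FGAA (log2 fold change -3.42 ± 0.37 SE, edgeR adjusted p = 4.5e-09). Hoxa5 was at 4.6, 7.77, 5.48, 3.74 and 4.74 CPM in G-NHA9Midi and 0.578, 0.746, 0.372, 0.671 and 0.497 CPM in G-NHA9Midi-21FGAA (log2 fold change -3.20 ± 0.28 SE, edgeR adjusted p = 3.8e-11). The groups of both genes were separate. Hoxb4, which is active in normal stem cells, was at 5.62, 5.7, 6.2, 5.3 and 6.32 CPM in G-NHA9Midi and 2.31, 2.48, 2.9, 1.42 and 2.34 CPM in G-NHA9Midi-21FGAA (log2 fold change -1.35 ± 0.18 SE, edgeR adjusted p = 2.7e-07), so its mutant libraries were lower by a smaller ratio. Hoxa2 (-3.45), whose promoter is printed above, Hoxa3 (-3.19), Hoxa6 (-3.08) and Hoxb3 (-3.06) also fell without overlap. Annotated Hoxa3 spans Hoxa4, Hoxa5 and Hoxa6 and genes on the other strand, and its reads are not independent of theirs.

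The lowest Hox genes rest on a handful of reads. Hoxb8 had 18 counts over the G-NHA9Midi group and 1 over the mutant group, a ratio of 22.8 with a 95% counting interval of 3.6 to 951, and Hoxc4 had 20 and 2, a ratio of 12.7 (3.08 to 112). Both passed the test. Hoxb5 (10 against 3 counts, ratio 4.23, interval 1.09 to 23.9), Hoxb6 (3 against 1) and Hoxc5 (5 against 2) did not. With only genes of at least 1 CPM on average retained, 7 Hox genes were lower. Hoxa4 lost its call without any 1 of replicates 1, 4 and 5 of G-NHA9Midi or 1, 2, 4 and 5 of the mutant (log2 fold change -0.70 to -0.57).

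**Figure D2:**
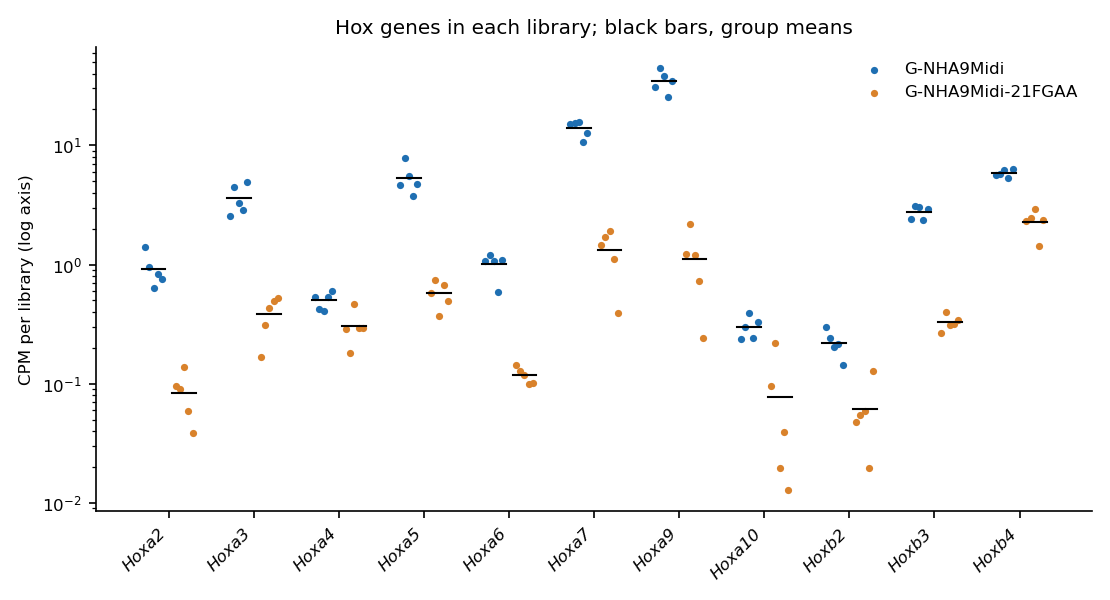
CPM of 11 Hox genes in each library on a log axis, with G-NHA9Midi in blue, G-NHA9Midi-21FGAA in orange and black bars at group means. The groups are apart for 10 of the genes and overlap for Hoxa4.

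Partners of Hox proteins rose more often than they fell. TALE homeodomain proteins (Meis, Pbx and Pknox) bind DNA with Hox proteins, and of 8 tested, 4 rose, 1 fell and the median log2 fold change was 0.46. Pknox2 was at 2.49, 4.05, 3.25, 5.11 and 7.62 CPM in G-NHA9Midi and 28.4, 20.1, 16, 34.8 and 34.5 CPM in G-NHA9Midi-21FGAA (log2 fold change 2.57 ± 0.40 SE, edgeR adjusted p = 2.8e-06). Meis1, a cofactor of HOXA9 in leukemia, was at 12.1, 8.49, 12.7, 14.9 and 10.6 CPM in G-NHA9Midi and 13.9, 18.8, 15.8, 16.8 and 26.9 CPM in G-NHA9Midi-21FGAA, with overlapping groups and a higher mean in the mutant (log2 fold change 0.65 ± 0.18 SE, edgeR adjusted p = 0.003). Pbx3 was at 7.73, 8.94, 8.57, 6.69 and 7.6 CPM in G-NHA9Midi and 8.62, 8.12, 9.55, 8.64 and 12.8 CPM in G-NHA9Midi-21FGAA and did not pass the test (log2 fold change 0.27 ± 0.14 SE, edgeR adjusted p = 0.11). Meis3 (2.48) rose, and Pknox1 (-0.69) fell.

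Stem cell genes moved both ways. Flt3, a receptor of early progenitors and a frequent site of leukemia mutations, was at 2.65, 1.26, 2.78, 2.62 and 1.69 CPM in G-NHA9Midi and 0.0722, 0.146, 0.0587, 0.237 and 0.051 CPM in G-NHA9Midi-21FGAA (log2 fold change -4.29 ± 0.32 SE, edgeR adjusted p = 1.9e-12), with empty vector at 0.187 ± 0.104 CPM. Every mutant library was under every G-NHA9Midi library. Kit, the receptor for stem cell factor, was at 39.3, 45.7, 44.5, 49.9 and 71.2 CPM in G-NHA9Midi and 101, 149, 203, 345 and 284 CPM in G-NHA9Midi-21FGAA (log2 fold change 2.11 ± 0.26 SE, edgeR adjusted p = 6.6e-08). Kit is high in stem cells and also in mast cells, and its groups were separate in the other direction from Flt3. Of 20 stem cell and leukemia transcription factors, 5 rose, 8 fell and the median was -0.17. Hlf, a factor of the most immature stem cells, was at 4.37, 2.67, 4.23, 4.52 and 5.03 CPM in G-NHA9Midi and 0.602, 0.801, 0.43, 0.789 and 0.637 CPM in G-NHA9Midi-21FGAA (log2 fold change -2.67 ± 0.27 SE, edgeR adjusted p = 9.7e-10). Sox4 was at 28.4, 32.8, 31.3, 23.1 and 24.6 CPM in G-NHA9Midi and 7.73, 6.3, 7.1, 5.68 and 4.19 CPM in G-NHA9Midi-21FGAA (log2 fold change -2.18 ± 0.18 SE, edgeR adjusted p = 9.3e-12). Gfi1, a repressor needed for granulocyte development, was at 49.2, 102, 75, 61.7 and 92.5 CPM in G-NHA9Midi and 12.8, 19.6, 15.4, 16.2 and 10.5 CPM in G-NHA9Midi-21FGAA (log2 fold change -2.35 ± 0.26 SE, edgeR adjusted p = 6.6e-09). The groups did not overlap for any of the 3. Bcat1, an enzyme of branched-chain amino acid use, was at 19.7, 22.2, 26.1, 15.6 and 25.1 CPM in G-NHA9Midi and 0.578, 2.13, 2.04, 1.28 and 2.38 CPM in G-NHA9Midi-21FGAA (log2 fold change -3.67 ± 0.28 SE, edgeR adjusted p = 3.1e-12), also without overlap. Of 13 stem and progenitor surface genes, 6 rose and 4 fell (median 0.38), and of 18 growth factor receptors, 9 rose and 4 fell (median 0.55). The receptor of G-CSF, Csf3r, fell from 67.7 ± 2.69 to 14.5 ± 4.66 CPM, and the IL-33 receptor Il1rl1 rose from 79.6 ± 17.2 to 472 ± 186 CPM (SD, n = 5).

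The largest falls were in genes of varied kinds. Tmem47 (chrX:81070698-81097872, plus strand), which encodes a junction-associated membrane protein, was at 12.8, 20.6, 14.1, 6.63 and 9.74 CPM in G-NHA9Midi and 0.0241, 0.0364, 0, 0 and 0.0255 CPM in G-NHA9Midi-21FGAA (log2 fold change -9.27 ± 0.65 SE, edgeR adjusted p = 4.1e-13). Tnfsf11 encodes RANKL, the osteoclast-inducing cytokine, and was at 12, 20, 12.8, 9.36 and 9.29 CPM in G-NHA9Midi and 0.0722, 0.109, 0.0587, 0 and 0.153 CPM in G-NHA9Midi-21FGAA (log2 fold change -7.19 ± 0.44 SE, edgeR adjusted p = 1.8e-14). The mutant group held 5 counts of Tmem47 and 24 of Tnfsf11, against 2736 and 2697 in G-NHA9Midi. Chil4, a chitinase-like secreted protein, was at 209, 198, 193, 315 and 213 CPM in G-NHA9Midi and 0.65, 1.8, 1.53, 1.42 and 4.47 CPM in G-NHA9Midi-21FGAA (log2 fold change -6.79 ± 0.45 SE, edgeR adjusted p = 1.1e-13). Csn2, which encodes beta-casein and is a classical STAT5 target, was at 45.2, 155, 92.2, 78.8 and 181 CPM in G-NHA9Midi and 0.313, 0.237, 0.391, 1.18 and 5.13 CPM in G-NHA9Midi-21FGAA (log2 fold change -6.16 ± 0.86 SE, edgeR adjusted p = 5.4e-07). The G-NHA9Midi libraries ranged widely for Csn2 but stayed above every mutant library.

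Crisp3, a secreted granule protein, was at 17.8, 25.2, 17.7, 14.9 and 11.7 CPM in G-NHA9Midi and 0.289, 0.0364, 0.117, 0.0986 and 0.102 CPM in G-NHA9Midi-21FGAA (log2 fold change -7.14 ± 0.65 SE, edgeR adjusted p = 1.2e-10). P2rx3, an ATP-gated channel that overlaps Ssrp1 on the other strand, was at 59.3, 65.7, 64.4, 61.6 and 75.5 CPM in G-NHA9Midi and 0.0963, 1.77, 0.333, 0.355 and 0.178 CPM in G-NHA9Midi-21FGAA (log2 fold change -6.89 ± 0.83 SE, edgeR adjusted p = 3.3e-08). Gm11168 (chr9:3003346-3006948, plus strand), at the assembled start of chromosome 9, overlaps Gm26870 on the other strand and was at 10.3, 16.3, 2.05, 3.82 and 18.8 CPM in G-NHA9Midi and 0.265, 0.0182, 0.0196, 0.0395 and 0.0127 CPM in G-NHA9Midi-21FGAA (log2 fold change -7.36 ± 1.79 SE, edgeR adjusted p = 0.0011). Reads of these overlapping genes may be shared, since the strand setting of the counting is not given in the sources used here. Bpifc (-5.78), Tgm3 (-5.95) and Frmd5 (-5.49) completed the 10 largest falls among genes of at least 5 CPM without overlap. The 10 largest rises by the same rule were 9 red cell genes, among them Epb42, Slc4a1, Ermap, Add2, Ank1, Rhag, Alas2 and Hba-a2, and the mast cell tryptase Tpsab1 (6.32).

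Erythroid transcripts rose from low levels. All 5 tested globin genes rose (median log2 fold change 6.10, and 8 rose with no filter on low counts), as did 20 of 22 red cell membrane genes (90.9%, median 5.78), 9 of 12 heme synthesis genes (median 0.73) and 9 of 14 erythroid transcription factors (64.3%, median 1.19). Summed globin CPM went from 55.6 ± 13.2 to 920 ± 330, with the empty vector at 325 ± 148 (SD, n = 5).

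Slc4a1, the anion exchanger of red cells, was at 0.179, 1.14, 0.102, 0.776 and 0.474 CPM in G-NHA9Midi and 29.7, 78.3, 75.5, 85 and 107 CPM in G-NHA9Midi-21FGAA (log2 fold change 7.23 ± 0.75 SE, edgeR adjusted p = 1.9e-09). Epb42 (chr2:121017891-121037072, minus strand) encodes protein 4.2, which ties that exchanger to the membrane skeleton, and was at 0.12, 0.03, 0, 0 and 0.0412 CPM in G-NHA9Midi and 4.16, 11.2, 11.4, 9.88 and 18 CPM in G-NHA9Midi-21FGAA (log2 fold change 7.97 ± 0.76 SE, edgeR adjusted p = 3.6e-10). The groups were separate for both genes, and the G-NHA9Midi group held 9 counts of Epb42 in all. Alas2, the first enzyme of erythroid heme synthesis, was at 0.0199, 0.6, 0.0409, 0.588 and 0.35 CPM in G-NHA9Midi and 12.9, 32.3, 34, 31.8 and 52.5 CPM in G-NHA9Midi-21FGAA (log2 fold change 6.78 ± 0.73 SE, edgeR adjusted p = 3.8e-09). Alas1, the form used in other cells, fell (log2 fold change -0.53 ± 0.13 SE, edgeR adjusted p = 0.0015). Hbb-bs, an adult beta globin, was at 0.698, 15.6, 1.62, 13.2 and 5.93 CPM in G-NHA9Midi and 223, 591, 542, 454 and 699 CPM in G-NHA9Midi-21FGAA (log2 fold change 6.10 ± 0.71 SE, edgeR adjusted p = 1.7e-08). Hba-a1, an alpha globin with a near-identical copy in Hba-a2, was at 0.598, 3.66, 0.921, 2.65 and 2.53 CPM in G-NHA9Midi and 64.6, 151, 162, 120 and 233 CPM in G-NHA9Midi-21FGAA (log2 fold change 6.17 ± 0.58 SE, edgeR adjusted p = 2.2e-10), and its reads can be split between the copies.

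Factors upstream of these proteins rose too. Klf1, the erythroid Krüppel-like activator, was at 0.359, 0.27, 0.266, 0.535 and 0.536 CPM in G-NHA9Midi and 5.92, 18.4, 16.1, 11.4 and 25 CPM in G-NHA9Midi-21FGAA (log2 fold change 5.28 ± 0.45 SE, edgeR adjusted p = 2.7e-11). Epor, the erythropoietin receptor, was at 0.339, 0.39, 0.368, 0.481 and 0.494 CPM in G-NHA9Midi and 3.47, 7.39, 5.62, 5.15 and 8.17 CPM in G-NHA9Midi-21FGAA (log2 fold change 3.84 ± 0.29 SE, edgeR adjusted p = 1.6e-12). Gata1, named after its values were seen, rose from 4.16 ± 1.31 to 41.4 ± 13.8 CPM (SD, n = 5, log2 fold change 3.31), and its groups were separate. Trim10 rose by 6.90, while Nfe2 (-0.49) and Lmo2 (-0.56) fell. In the red cell list, the carbonic anhydrase gene Car2 (0.21) and Xk did not pass the test. Of 14 iron handling genes, 7 rose and 1 fell, and the transferrin receptor gene Tfrc rose from 104 ± 23.7 to 257 ± 29.6 CPM.

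Megakaryocyte and platelet genes rose in 17 of 19 cases (89.5%, median 2.95), and 1 fell. Ppbp, a platelet chemokine, was at 9.01, 7.17, 6.91, 21 and 11.1 CPM in G-NHA9Midi and 105, 211, 132, 127 and 218 CPM in G-NHA9Midi-21FGAA (log2 fold change 3.84 ± 0.48 SE, edgeR adjusted p = 7.4e-08). Tubb1, the platelet tubulin, was at 0.459, 0.3, 0.327, 0.615 and 0.412 CPM in G-NHA9Midi and 9.48, 19.2, 17, 9.67 and 25.9 CPM in G-NHA9Midi-21FGAA (log2 fold change 5.26 ± 0.51 SE, edgeR adjusted p = 4.9e-10). Itgb3, a subunit of the platelet fibrinogen receptor, was at 115, 61.6, 89, 130 and 106 CPM in G-NHA9Midi and 294, 535, 290, 317 and 570 CPM in G-NHA9Midi-21FGAA (log2 fold change 2.00 ± 0.26 SE, edgeR adjusted p = 1.3e-07). The groups were separate for all 3. Gp1ba, part of the receptor for von Willebrand factor, rose by 4.61. Thbs1 went the other way. It encodes thrombospondin, which platelets store and macrophages also make, and it was at 4881, 6304, 5165, 4060 and 6098 CPM in G-NHA9Midi and 2475, 2388, 1442, 1071 and 1345 CPM in G-NHA9Midi-21FGAA (log2 fold change -1.60 ± 0.28 SE, edgeR adjusted p = 2e-05). Its level dominated the list, so the summed list level was 6481 ± 743 CPM in G-NHA9Midi and 4992 ± 864 CPM in the mutant (SD, n = 5) although most members rose.

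Mast cell and basophil genes moved together. Of 20 tested, 19 rose (95%), none fell, and the median log2 fold change was 2.52. Their summed level went from 1366 ± 225 to 6813 ± 1929 CPM, with the empty vector at 3684 ± 1120 CPM (SD, n = 5). Cpa3, the carboxypeptidase of mast cell granules, was at 393, 257, 376, 404 and 220 CPM in G-NHA9Midi and 1384, 2080, 2763, 3402 and 2619 CPM in G-NHA9Midi-21FGAA (log2 fold change 2.89 ± 0.26 SE, edgeR adjusted p = 1e-10). Cma1, a chymase, was at 9.33, 16.6, 17.7, 32.7 and 39.7 CPM in G-NHA9Midi and 345, 692, 822, 1250 and 635 CPM in G-NHA9Midi-21FGAA (log2 fold change 5.01 ± 0.38 SE, edgeR adjusted p = 2e-12). Mcpt2, another granule protease, was at 3.07, 8.94, 3.44, 7.43 and 10 CPM in G-NHA9Midi and 215, 232, 273, 377 and 386 CPM in G-NHA9Midi-21FGAA (log2 fold change 5.50 ± 0.35 SE, edgeR adjusted p = 4e-14). The groups were separate for each, but proteases of this family are alike in sequence and reads can be split between them. Cyp11a1, a steroid-forming enzyme known from activated mast cells, did not pass the test (log2 fold change 0.09 ± 0.13 SE, edgeR adjusted p = 0.63).

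Eosinophil genes rose in 10 of 12 cases (83.3%, median 4.37). Epx, eosinophil peroxidase, was at 4.27, 10.2, 4.11, 6.12 and 22.5 CPM in G-NHA9Midi and 283, 518, 384, 186 and 480 CPM in G-NHA9Midi-21FGAA (log2 fold change 5.29 ± 0.50 SE, edgeR adjusted p = 3.3e-10). Prg2, the major basic protein of the granule, was at 20.3, 50.2, 22.2, 27.6 and 68.5 CPM in G-NHA9Midi and 795, 1322, 1092, 368 and 1018 CPM in G-NHA9Midi-21FGAA (log2 fold change 4.61 ± 0.45 SE, edgeR adjusted p = 5.6e-10). Il5ra, the receptor for the cytokine that sustains eosinophils, was at 0.0598, 0.12, 0.123, 0.0535 and 0.0824 CPM in G-NHA9Midi and 2.26, 3.04, 2.78, 3.1 and 3.36 CPM in G-NHA9Midi-21FGAA (log2 fold change 5.02 ± 0.44 SE, edgeR adjusted p = 5.9e-11). None of these groups overlapped. The summed level was 128 ± 47.4 CPM in G-NHA9Midi, 1756 ± 587 CPM in the mutant and 1706 ± 250 CPM in the empty vector (SD, n = 5). The 2 members that fell were Cebpe (-0.60), which neutrophil precursors also use, and Ccr3 (-1.07), and both overlapped between groups. Only 1 of them passed the test without any 1 of G-NHA9Midi replicates 2 and 5 or mutant replicates 1, 4 and 5.

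**Figure D3:**
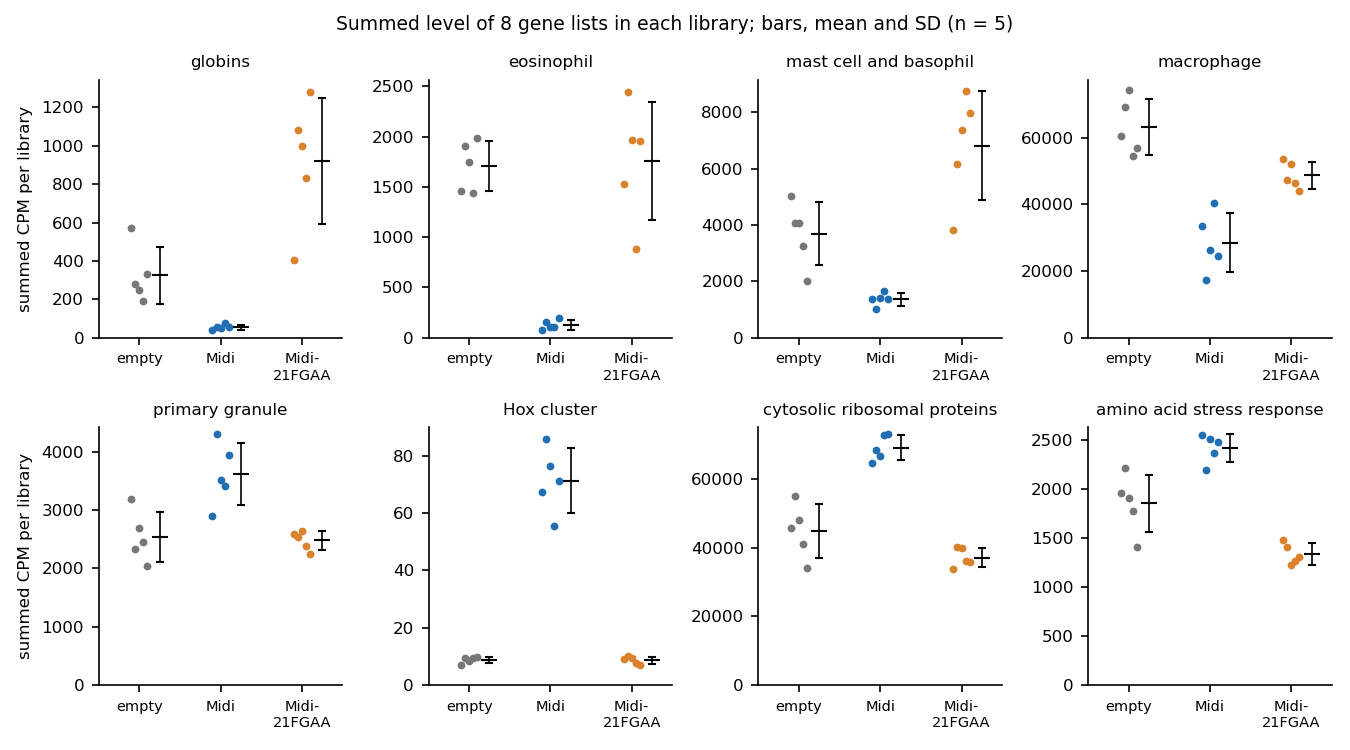
Summed CPM of 8 gene lists in each library of the empty vector (grey), G-NHA9Midi (blue) and G-NHA9Midi-21FGAA (orange), with the mean and SD of 5 libraries. Globins, eosinophil, mast cell and macrophage genes sit higher in every mutant library than in every G-NHA9Midi library, and primary granule, Hox, ribosomal protein and amino acid stress genes sit lower.

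Early granulocyte genes mostly fell. Of 12 primary granule genes, 9 were lower (75%) and 1 was higher, with a median of -1.13. Ctsg, cathepsin G, was at 242, 491, 368, 272 and 428 CPM in G-NHA9Midi and 59.3, 105, 120, 76.1 and 45.6 CPM in G-NHA9Midi-21FGAA (log2 fold change -2.15 ± 0.29 SE, edgeR adjusted p = 3.6e-07). Ms4a3, a marker of granulocyte-monocyte progenitors, was at 121, 329, 204, 137 and 262 CPM in G-NHA9Midi and 36.1, 57.8, 51.9, 41.5 and 25 CPM in G-NHA9Midi-21FGAA (log2 fold change -2.31 ± 0.34 SE, edgeR adjusted p = 1e-06). Both were separate between groups. Mpo, myeloperoxidase, fell from 211 ± 92.8 to 103 ± 43.2 CPM, and Elane, neutrophil elastase, from 121 ± 79.8 to 52.2 ± 15.8 CPM (SD, n = 5), but their groups overlapped. Ctsc, the cathepsin that activates granule proteases and is also made by macrophages, rose (0.83).

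Genes of later neutrophils split. Of 24, 8 rose, 9 fell and the median was -0.25. S100a9, a subunit of the calprotectin complex, was at 4765, 9053, 6817, 8404 and 10175 CPM in G-NHA9Midi and 4426, 4679, 2331, 3558 and 1919 CPM in G-NHA9Midi-21FGAA (log2 fold change -1.21 ± 0.25 SE, edgeR adjusted p = 0.00015), and its groups were separate. Mmp9 (-2.44), Retnlg (-2.08) and Padi4 (-1.50) fell, whereas the formyl peptide receptor Fpr1 (2.76) and the chitinase-like Chil3 (1.55) rose. Itgam, the CD11b chain of myeloid cells, was at 302, 242, 231, 273 and 229 CPM in G-NHA9Midi and 295, 230, 207, 134 and 179 CPM in G-NHA9Midi-21FGAA and did not pass the test (log2 fold change -0.29 ± 0.19 SE, edgeR adjusted p = 0.23). Of 18 myeloid transcription factors, 4 rose and 5 fell (median -0.11), among them Cebpa (-0.81) and Cebpd (-1.22). Without any 1 of G-NHA9Midi replicate 5 and mutant replicates 4 and 5, 3 fell.

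Macrophage genes rose in 13 of 24 cases (54.2%) and fell in 3, with a median of 0.62. Lyz2, lysozyme, was at 8544, 4694, 7033, 13079 and 8022 CPM in G-NHA9Midi and 20307, 18870, 21473, 19763 and 16740 CPM in G-NHA9Midi-21FGAA (log2 fold change 1.23 ± 0.24 SE, edgeR adjusted p = 8e-05). Marco, a scavenger receptor, was at 1.99, 1.95, 1.74, 3.13 and 2.72 CPM in G-NHA9Midi and 26.5, 28.3, 35.3, 15.4 and 16.7 CPM in G-NHA9Midi-21FGAA (log2 fold change 3.41 ± 0.32 SE, edgeR adjusted p = 2.6e-10). Neither pair of groups overlapped. Vcam1 (-2.52) and Apoe (-1.56) fell. The summed level of the list was 28449 ± 8863 CPM in G-NHA9Midi, 48755 ± 4055 CPM in the mutant and 63120 ± 8449 CPM in the empty vector (SD, n = 5). H2-Ob, which modulates peptide loading of MHC class II in B cells and dendritic cells, was at 101, 118, 111, 113 and 117 CPM in G-NHA9Midi and 7.39, 10.8, 10.1, 5.33 and 9.15 CPM in G-NHA9Midi-21FGAA (log2 fold change -3.70 ± 0.21 SE, edgeR adjusted p = 4.4e-15). Of the 10 class II genes, H2-Ob included, 5 rose, 2 fell and the median was 0.30. Of 13 CC chemokine genes, 5 rose and 2 fell, and 3 rose without G-NHA9Midi replicate 2. Of 11 leukocyte integrin and selectin genes, 3 rose and 2 fell. Of 6 NADPH oxidase genes, 3 fell by small amounts, Ncf4 (-0.54) the most.

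Interferon-stimulated genes rose in 21 of 28 cases (75%, median 1.60), and none fell. These genes answer type I and II interferons and include antiviral enzymes. Their summed level was 460 ± 20.9 CPM in G-NHA9Midi, 674 ± 311 CPM in the mutant and 656 ± 142 CPM in the empty vector (SD, n = 5). Oas2, which makes the activator of RNase L, was at 1.42, 0.87, 1.06, 1.47 and 1.3 CPM in G-NHA9Midi and 5.17, 5.7, 5.46, 6.49 and 23.3 CPM in G-NHA9Midi-21FGAA (log2 fold change 2.91 ± 0.52 SE, edgeR adjusted p = 2.5e-05). Rsad2, whose product viperin blocks viral replication, was at 6.44, 6.03, 9.76, 7.68 and 8.38 CPM in G-NHA9Midi and 19.7, 32, 27.1, 21.5 and 123 CPM in G-NHA9Midi-21FGAA (log2 fold change 2.55 ± 0.53 SE, edgeR adjusted p = 0.00019). Ifi27l2a was at 1.22, 1.08, 1.45, 1.55 and 1.09 CPM in G-NHA9Midi and 7.46, 9.83, 9.98, 6.45 and 17.8 CPM in G-NHA9Midi-21FGAA (log2 fold change 3.01 ± 0.37 SE, edgeR adjusted p = 4.8e-08). Mutant replicate 5 was the highest of its group in each, and its summed list level was 1228 CPM, against 505 to 592 CPM in the other four and 428 to 485 CPM in G-NHA9Midi. Without that library 13 of 28 rose, and the log2 fold change of Oas2 was 2.21 (edgeR adjusted p = 3e-04) and that of Rsad2 1.71 (adjusted p = 0.0035).

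Transcripts of the cytosolic ribosome fell almost as a unit. Of 79 ribosomal protein genes, 78 were lower (98.7%), without overlap between groups, and the range of log2 fold changes was -1.35 to -0.14 with a median of -0.90. Summed, they took 69277 ± 3724 CPM in G-NHA9Midi, 37184 ± 2805 CPM in the mutant and 44943 ± 7860 CPM in the empty vector (SD, n = 5). Rps12, of the small subunit, was at 1086, 1051, 1074, 1097 and 1112 CPM in G-NHA9Midi and 506, 620, 619, 583 and 563 CPM in G-NHA9Midi-21FGAA (log2 fold change -0.91 ± 0.11 SE, edgeR adjusted p = 2e-08). Rpl12, of the large subunit, was at 1121, 1221, 1180, 1300 and 1301 CPM in G-NHA9Midi and 488, 592, 595, 559 and 554 CPM in G-NHA9Midi-21FGAA (log2 fold change -1.14 ± 0.12 SE, edgeR adjusted p = 3.5e-09). Rps23, near the decoding centre, was at 1002, 1053, 1014, 1059 and 1094 CPM in G-NHA9Midi and 372, 427, 438, 397 and 409 CPM in G-NHA9Midi-21FGAA (log2 fold change -1.35 ± 0.13 SE, edgeR adjusted p = 6.3e-10), the largest fall of the list. Rpl41 was the gene that did not pass the test. Ribosomal protein genes have many processed pseudogenes, and reads can be split among copies.

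Other parts of the translation machinery fell by less. Of 44 translation factors, 24 were lower (54.5%) and 1 higher (median -0.32), and Eef1a1, the elongation factor that delivers aminoacyl-tRNA, was at 9979, 10014, 9614, 9700 and 10207 CPM in G-NHA9Midi and 5088, 5838, 5678, 5794 and 5646 CPM in G-NHA9Midi-21FGAA (log2 fold change -0.82 ± 0.11 SE, edgeR adjusted p = 5.4e-07). Of 61 nucleolar ribosome assembly genes, 22 were lower and 1 higher (median -0.25), and Npm1, the abundant nucleolar chaperone, went from 557 ± 145 to 361 ± 57.8 CPM with overlapping groups. Of 78 mitochondrial ribosomal protein genes, 26 were lower and 4 higher (median -0.16).

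Genes of the amino acid stress response fell in 16 of 18 cases (88.9%, median -0.94), and none rose. This response, driven by the transcription factor ATF4, raises amino acid supply when it runs short. Atf4 itself was at 541, 425, 530, 505 and 480 CPM in G-NHA9Midi and 311, 294, 260, 231 and 221 CPM in G-NHA9Midi-21FGAA (log2 fold change -0.91 ± 0.18 SE, edgeR adjusted p = 9.6e-05). Trib3, a target that feeds back on ATF4, was at 124, 62.3, 94.5, 98.7 and 82.4 CPM in G-NHA9Midi and 19.5, 20.7, 18, 19.4 and 13.9 CPM in G-NHA9Midi-21FGAA (log2 fold change -2.34 ± 0.29 SE, edgeR adjusted p = 5e-08). The groups of both were separate. Slc7a3, a transporter of arginine and lysine, was at 6.22, 9.33, 8.37, 8.32 and 10.3 CPM in G-NHA9Midi and 0.313, 0.582, 0.352, 0.237 and 0.382 CPM in G-NHA9Midi-21FGAA (log2 fold change -4.49 ± 0.61 SE, edgeR adjusted p = 3.2e-07). Chac1, a glutathione-degrading target whose promoter is printed above, fell by 2.60 on the log2 scale, and asparagine synthetase (Asns) went from 271 ± 36.2 to 58.6 ± 24.1 CPM (SD, n = 5). Atf3 and Ddit4 did not pass the test.

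Serine and one-carbon genes moved in the same direction, with 11 of 17 lower (64.7%), 3 higher and a median of -0.73. Phgdh, which starts serine synthesis, was at 160, 188, 188, 164 and 221 CPM in G-NHA9Midi and 53.4, 89, 68.7, 68.2 and 62.6 CPM in G-NHA9Midi-21FGAA (log2 fold change -1.43 ± 0.18 SE, edgeR adjusted p = 9.4e-08). Cth, the enzyme that makes cysteine from cystathionine, was at 19.2, 34.8, 31.4, 20.5 and 32.8 CPM in G-NHA9Midi and 0.481, 3.33, 1.37, 0.375 and 0.714 CPM in G-NHA9Midi-21FGAA (log2 fold change -4.46 ± 0.71 SE, edgeR adjusted p = 4.8e-06). Mutant libraries of both genes were below all G-NHA9Midi libraries. Of the 3 that rose, Tyms (0.81) and Mthfd1 (0.38) serve nucleotide synthesis, and without any 1 of 3 libraries (G-NHA9Midi replicate 4, mutant replicates 3 and 5) 2 rose.

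Proliferation genes were higher by small ratios that leaned on single libraries. Of 32 mitosis genes, 15 rose (46.9%, median 0.43) and none fell, and of 43 DNA replication genes, 15 rose (34.9%, median 0.20) and 2 fell. Mki67, a marker of cycling cells, was at 249, 513, 355, 190 and 326 CPM in G-NHA9Midi and 780, 712, 665, 683 and 973 CPM in G-NHA9Midi-21FGAA (log2 fold change 1.22 ± 0.23 SE, edgeR adjusted p = 4.1e-05), and its groups were separate. The number of mitosis genes that rose was 8 without G-NHA9Midi replicate 1, 24 without its replicate 2, 8 without its replicate 4 and 10 without mutant replicate 5. For DNA replication it was 9 without G-NHA9Midi replicate 1 and 10 without its replicate 4. Of 18 G1 cyclin and CDK inhibitor genes, 8 rose and 3 fell. They included Ccnd1 (1.55), cyclin D1, and the inhibitor Cdkn1c (1.88), so drivers and brakes were both among the genes that rose.

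Glycolysis genes rose in 14 of 23 cases (60.9%, median 0.35), and 2 fell. Slc2a1, the glucose transporter GLUT1, rose by 1.08, and Hk3, a hexokinase of neutrophils, fell (-0.76). Sterol and fatty acid synthesis genes rose in 14 of 30 cases (46.7%, median 0.39), and none fell. Scd1, which makes monounsaturated fatty acids, was at 32.4, 51.1, 44.4, 46 and 68.2 CPM in G-NHA9Midi and 170, 168, 170, 236 and 193 CPM in G-NHA9Midi-21FGAA (log2 fold change 1.95 ± 0.24 SE, edgeR adjusted p = 4.3e-08), with no overlap.

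Signalling and survival lists were near the shares of all genes. Of 14 STAT5 target genes, 3 rose and 4 fell (median 0.085), with Csn2 and the kinase Pim1 (-0.99) among those that fell and Cish (-0.19) not past the threshold. Of 20 p53 target genes, 3 rose and 5 fell (median -0.09), and Cdkn1a, the p21 inhibitor, had a log2 fold change of -0.08. Of 17 BCL2 family genes, 4 rose and 4 fell. Bcl2 itself, which blocks mitochondrial cell death, was at 113, 99.4, 99.1, 82.8 and 85.3 CPM in G-NHA9Midi and 37.1, 52, 44.6, 37.3 and 54 CPM in G-NHA9Midi-21FGAA (log2 fold change -1.09 ± 0.16 SE, edgeR adjusted p = 7.7e-07), with separate groups. Bok rose from 0.397 ± 0.184 to 3.71 ± 1.7 CPM.

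Markers of cells that lineage depletion should remove, or that are not blood cells, stayed at low sums. Summed CPM of the B cell list was 2 to 2.9 in G-NHA9Midi and 1.9 to 5.8 in the mutant, that of T and NK genes 10.7 to 17 and 8.2 to 18, and that of stroma and endothelium 26.2 to 40.6 and 29.5 to 54.3. Of 3 tested B cell genes 1 rose and 1 fell, of 6 T and NK genes 2 rose and 1 fell, and of 6 stroma and endothelium genes 2 rose and 1 fell. The defining genes Cd3e and Pax5 were too low to test. Lck went from 5.63 ± 0.876 to 1.21 ± 0.321 CPM, and Cd2 from 0.12 ± 0.0773 to 2.16 ± 0.428 CPM (SD, n = 5). The part of these cells in the other results was not tested.

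**Figure D4:**
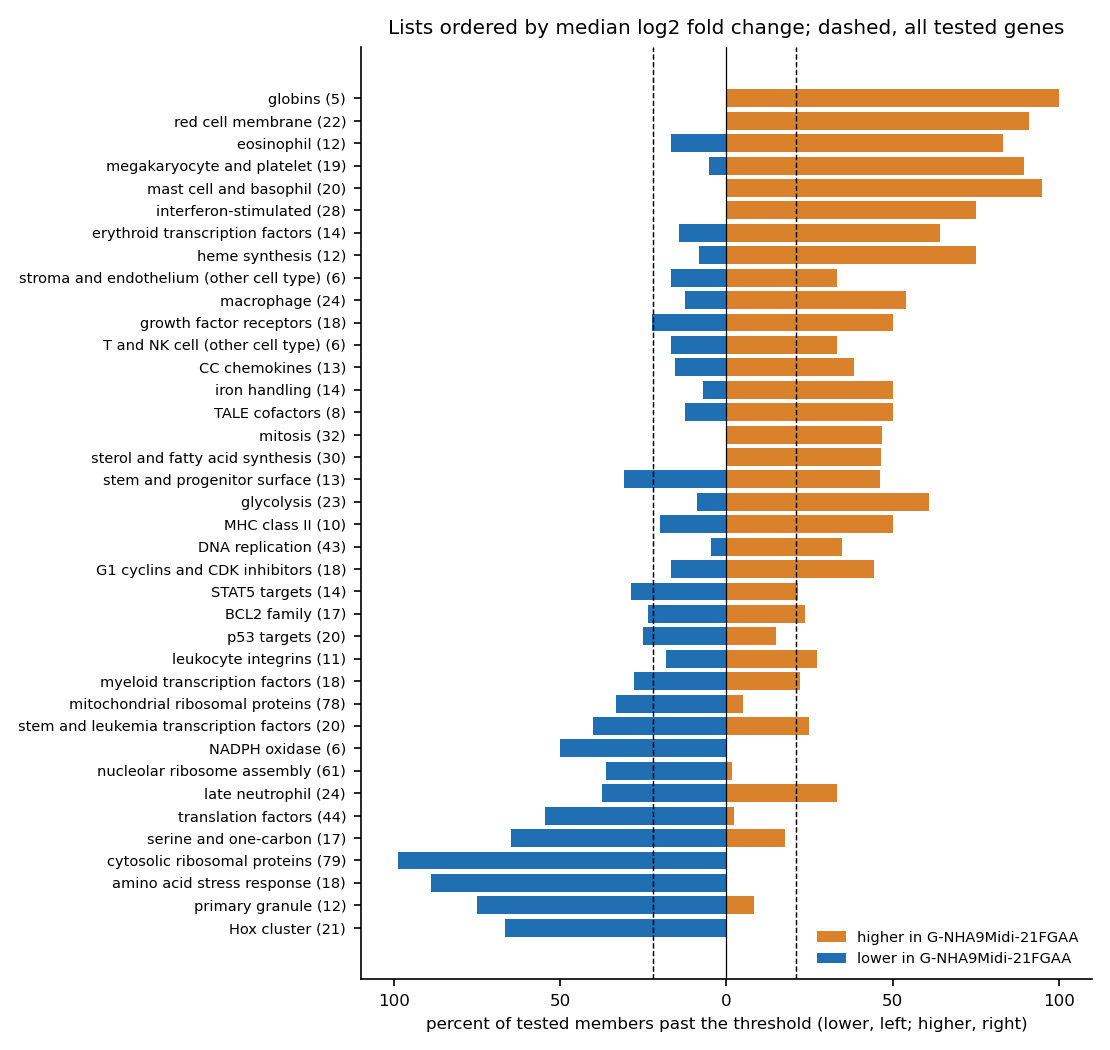
Percent of tested members (number in parentheses) of each list that were higher (orange, right) or lower (blue, left) in G-NHA9Midi-21FGAA, in order of median log2 fold change. Dashed lines mark the shares of all tested genes, 21.0% higher and 22.2% lower, and lists from the globins to the mast cell genes and from serine to Hox genes reach well past them.

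The same FG mutation was also made in full-length G-NHA9, which keeps the GLEBS domain and the N-terminal FG motifs that the short form lacks. Its 21FGAA mutant thus retains the N-terminal motifs. In that protein, 1529 genes (8.91%) were higher and 1431 (8.34%) lower than in G-NHA9. The 4 groups share no library. Of the called genes, 1244 were higher and 1012 lower in both comparisons, and 95 were called in opposite directions. Across the 17166 genes, the log2 fold changes had a Pearson correlation of 0.676 and a Spearman correlation of 0.577, which describe genes of 1 set of libraries and not replicates. The difference between the 2 changes was tested itself: 1275 genes (7.43%) were higher and 892 (5.20%) lower in the short form than in the long one. With a replicate block 1788 were higher and 1637 lower, and with a log2 difference of at least 1 also required 863 were higher and 385 lower.

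Erythroid genes were among those whose change was greater in the short form. The difference passed the test upward for 15 of 22 red cell membrane genes, 4 of 5 globins, 9 of 12 eosinophil genes and 8 of 19 megakaryocyte genes, but for 4 of 20 mast cell genes. The megakaryocyte count was 4 without G-NHA9 replicate 2, 5 without any 1 of full-length 21FGAA replicate 1, G-NHA9Midi replicates 1, 2 and 3 and G-NHA9Midi-21FGAA replicate 5, and 12 with a replicate block. Epb42 rose by 7.97 in the short form and 1.93 in the long one (difference 6.04 ± 0.94 SE, edgeR adjusted p = 2.9e-05). Slc4a1 rose by 7.23 and 1.91 (difference 5.32 ± 0.89 SE, edgeR adjusted p = 7.6e-05). Aqp1, the red cell water channel, had changes of 6.22 and 0.66 (difference 5.56 ± 0.73 SE, edgeR adjusted p = 2.9e-06), Hba-a2 of 6.81 and 1.24 (difference 5.57 ± 0.89 SE, edgeR adjusted p = 4.1e-05), and Ermap of 6.59 and 1.38 (difference 5.22 ± 0.79 SE, edgeR adjusted p = 2e-05). G-NHA9Midi held the lowest Epb42 mean of the 4 groups, 0.0382 CPM, against 2.11 CPM in G-NHA9, while both mutants were at 10.9 and 8.03 CPM.

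Falls that differed were of other kinds. Chil4 changed by -6.79 in the short form and -0.54 in the long one (difference -6.26 ± 0.56 SE, edgeR adjusted p = 2.8e-09). Csn2 changed by -6.16 and -1.13 (difference -5.03 ± 1.06 SE, edgeR adjusted p = 0.0012), and Cth by -4.46 and -0.40 (difference -4.06 ± 0.92 SE, edgeR adjusted p = 0.0025). Cxcl3, a chemokine for neutrophils, changed by -4.46 and -0.42 (difference -4.04 ± 0.62 SE, edgeR adjusted p = 2.4e-05), and Gm26870 by -5.12 and -0.25 (difference -4.88 ± 1.36 SE, edgeR adjusted p = 0.014). In G-NHA9Midi, Cxcl3 was at 67.8, 96.6, 84.2, 143 and 166 CPM, and Chil4 is listed above, whereas their G-NHA9 means were 8.74 and 3.39 CPM. Tmem47 (-9.27 and -1.86, difference -7.41 ± 0.98 SE, edgeR adjusted p = 3.3e-06) and Tnfsf11 (-7.19 and -1.31, difference -5.89 ± 0.56 SE, edgeR adjusted p = 1.3e-08) also fell further in the short form. Ribosomal protein genes fell more in the short form for 49 of 79 (median difference -0.54), amino acid stress genes for 8 of 18, and serine genes for 7 of 17. The ribosomal protein count was 34 to 59 with 1 library left out and 64 with a replicate block. Summed ribosomal protein CPM also differed between the parents, with 69277 ± 3724 in G-NHA9Midi and 55397 ± 9963 in G-NHA9 (SD, n = 5). The serine count was 3 without G-NHA9 replicate 4 and 4 without its replicate 5. The amino acid stress count was 12 with a replicate block or without G-NHA9 replicate 3, 4 without full-length 21FGAA replicate 3, and 5 without any 1 of G-NHA9 replicates 4 and 5, full-length 21FGAA replicates 1 and 2, G-NHA9Midi replicate 5 and G-NHA9Midi-21FGAA replicates 3, 4 and 5.

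Hox genes differed in a gene-by-gene way. Hoxa9 fell by 4.98 in the short form and 4.88 in the long one on the log2 scale, and the difference did not pass the test (-0.09 ± 0.46 SE, edgeR adjusted p = 0.93). Hoxa5, Hoxa7 and Hoxb4 had differences of -0.09, -0.77 and -0.05, none past the threshold. For 8 of 21 Hox genes the change was less negative in the short form, as with Hoxa10 (-1.98 and -5.78, difference 3.80 ± 0.78 SE, edgeR adjusted p = 0.00097) and Hoxc6 (-1.32 and -5.95, difference 4.63 ± 0.88 SE, edgeR adjusted p = 0.00041). That count was 5 without G-NHA9Midi-21FGAA replicate 4 and 3 with only genes of at least 1 CPM on average retained. Hoxa10 stood at 0.3 CPM in G-NHA9Midi and 4.24 CPM in G-NHA9, and Hoxc6 at 0.144 and 19.6 CPM. Pbx3 changed by 0.27 in the short form and -2.61 in the long one (difference 2.89 ± 0.20 SE, edgeR adjusted p = 5.5e-12), with 7.91 CPM in G-NHA9Midi and 63.2 CPM in G-NHA9. Flt3 fell in both, by 4.29 and 5.01, and the difference did not pass the test (0.72 ± 0.46 SE, edgeR adjusted p = 0.34).

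**Figure D5:**
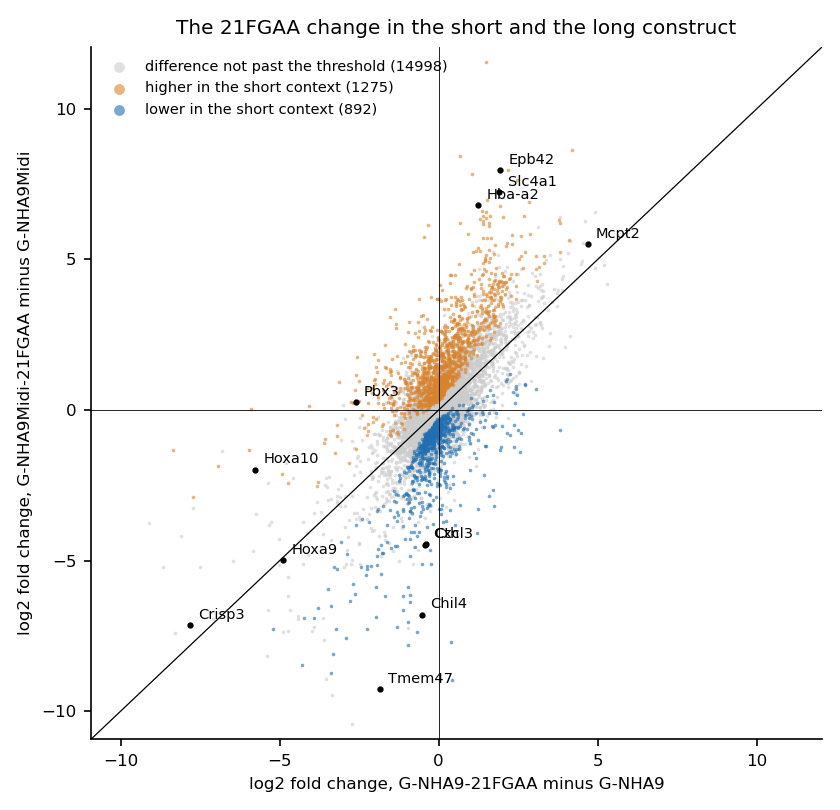
Log2 fold change of each tested gene for 21FGAA against its parent in the full-length protein (across) and in the short protein (upward), with the line of equal change. Orange genes (1275) had a higher and blue genes (892) a lower change in the short protein, and Hoxa9 lies on the line while Epb42 lies above it and Chil4 below it.

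Interferon-stimulated genes had a difference upward in 15 of 28 cases, and in the full-length protein none of the 28 rose and 3 fell. The parents differed in summed level, with 753 ± 34.0 CPM in G-NHA9 and 460 ± 20.9 CPM in G-NHA9Midi. The mutants were at 575 ± 200 CPM in the long form and 674 ± 311 CPM in the short one (SD, n = 5). Without G-NHA9Midi-21FGAA replicate 5, the library high in these genes, the difference was called in 8 of the 28, and without full-length 21FGAA replicate 1 or 3 in 10. The difference of Oas2 was 3.58 ± 0.70 SE (edgeR adjusted p = 0.00054), and that of Rsad2 was 1.95 ± 0.71 SE (adjusted p = 0.067). Without G-NHA9Midi-21FGAA replicate 5 they were 2.88 (edgeR adjusted p = 0.002) and 1.11 (adjusted p = 0.29). The Rsad2 difference passed the test without G-NHA9Midi-21FGAA replicate 1 or full-length 21FGAA replicate 4, where it was highest (2.79), and by DESeq2. Macrophage genes had a difference upward in 8 of 24 cases, and of these Adgre1, C1qa, C1qb and C1qc were lower in full-length 21FGAA than in G-NHA9. Crisp3 fell in both, by 7.14 and 7.83, without a difference past the threshold.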

How the data were processed

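Total RNA of 35 libraries, 5 for each of 7 constructs, was sequenced as pairs on an Illumina NovaSeq after a TruSeq Stranded Total RNA preparation. The submitters' processing notes name STAR 2.7.0d, HTSeq 0.11.2, DESeq2 and mm10. The authors deposited 1 table of whole-number read counts for each gene and library, not normalized. The annotation and the strand setting of the counting are not given in the sources used here. Positions came from GENCODE M21 (GRCm38) and promoters from RefSeq (GRCm38.p6).

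Counts were read in R 4.3.3. Of 49671 genes, 11520 had no count, and 17166 passed the edgeR 4.0.16 expression filter and held 99.96% of the counts. The 35 libraries were fitted together with 1 mean for each group, TMM scaling and the quasi-likelihood test. P-values were adjusted by Benjamini-Hochberg over all tested genes, with a threshold of 0.05. SE, an approximate standard error, is the absolute log2 fold change divided by the square root of its F statistic, and CPM are TMM-scaled. "Rose" and "fell" refer to genes past the threshold in G-NHA9Midi-21FGAA relative to G-NHA9Midi. The script was tested on simulated counts.

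Totals of the 10 libraries were 32201151 to 75810659. Intervals and limits of low counts cover counting error only. Replicate libraries differed by 31.4 to 152 times the chi-square expected from counting, so none was a copy.

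The members and the 41 gene lists were chosen with earlier results of these data known. Genes named were the 10 largest rises and falls of at least 5 CPM without overlap, in each list the 3 highest and the 3 most changed, all Hox genes, 7 genes that the study names or that make the fusion, and the 5 largest differences each way from the full-length protein. Others (Adgre1, Apoe, Asns, Atf3, the C1q genes, Ccr3, Cd34, Cebpa, Cebpe, Cish, Csf3r, Ddit4, Elane, Gata1, Lmo2, Mpo, Mthfd1, Padi4, Rpl41, Tyms and Xk) were named after their values were seen. Some genes that these rules choose are not reported here. Alternatives were other scalings (none, RLE), no filter or a minimum of 1 CPM, a replicate block, the compared groups alone, DESeq2 1.42.0, a sex-linked covariate, a minimum log2 fold change of 1, and each library left out.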

Additional observations from a re-analysis of the deposited data

Results flagged for a closer look

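In 212 groups of 5 values (named genes and summed lists), the highest or lowest library was set apart in 13 by a gap of over 0.71 of the group's range, and chance sets apart about 1 in 20. Among G-NHA9Midi libraries, Chil4 was 315 CPM in replicate 4 and 213 in the next, and the mitochondrial ribosomal protein list was 2648 CPM in replicate 4 and 2451 in the next. Among G-NHA9Midi-21FGAA libraries, replicate 5 stood apart for Oas2 (23.3 CPM, next 6.49), Rsad2 (123 CPM, next 32.0), Csn2 (5.13 CPM, next 1.18), the interferon-stimulated list (1228 CPM, next 592) and the stroma and endothelium list (54.3 CPM, next 35.8). Replicate 1 of the mutant was apart for the overlapping genes Gm11168 (0.265 CPM, next 0.0395) and Gm26870 (2.53 CPM, next 0.888), for the STAT5 target list (2334 CPM, next 2073), and, as the lowest, for Eef1a1 (5088 CPM, next 5646). P2rx3 was 1.77 CPM in mutant replicate 2 and 0.355 in the next, and the sterol and fatty acid list was 6397 CPM in mutant replicate 4 and 5520 in the next.

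The change from FG to AA differed between the short and the full-length protein for 2167 genes at an edgeR adjusted p under 0.05. Among genes of at least 5 CPM over the 20 libraries, the differences furthest below 0 on the log2 scale were those of Chil4 (-6.26), Csn2 (-5.03), Gm26870 (-4.88), Cth (-4.06) and Cxcl3 (-4.04). Those furthest above 0 were Epb42 (6.04), Hba-a2 (5.57), Aqp1 (5.56), Slc4a1 (5.32) and Ermap (5.22).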

How the results depend on the processing

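Between 79.8% and 99.9% of the 7416 called genes were called again under the 18 alternatives other than the fold threshold, and 0 changed sign. With a log2 fold change of at least 1 also required, 2907 genes were called (1764 higher, 1143 lower), calls in the lists numbered 240 and not 529, and the difference from the full-length protein was called for 1248 genes (385 lower). Lists of small folds lost most calls. Genes that fell went from 78 to 25 for cytosolic ribosomal proteins, 26 to 1 for mitochondrial ones, 24 to 0 for translation factors and 22 to 2 for nucleolar assembly. Genes that rose went from 15 to 0 for DNA replication, 15 to 2 for mitosis, and 14 to 2 for glycolysis and for sterol and fatty acid synthesis. Leaving out 1 library gave 6669 to 7242 changed genes (3257 to 3582 higher, 3363 to 3750 lower), 489 to 531 calls in lists, and 1767 to 2264 differing genes (1045 to 1282 higher, 692 to 999 lower). The mean of Hoxa9 was then 32.1 to 36.8 CPM in G-NHA9Midi and 0.848 to 1.33 CPM in the mutant. DESeq2 called 7631 genes, 98.8% of those above among them. The share of called genes that were higher was 48.5%, and from 43.5% with no filter to 52.4% with the compared groups alone. Of 251 named genes, 24 changed call in at least 1 of the 18. None changed sign where it was past the threshold in either fit. Some genes that did not pass the test did change sign with a library left out. Among them were Car2 (-0.0195 to 0.408) and Cdkn1a (-0.186 to 0.0219), so their directions are not settled. The medians of the T and NK list (-0.015 with no filter) and the B cell list (1.34 with a minimum of 1 CPM) changed sign.

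Libraries with the same number deviated together only in part. The correlations of their deviations were 0.029 to 0.378 (mean 0.201, against -0.048 for other numbers), and 4 of 5 were over 0.1. For 4 of 5, the library lay closest to its own number. The labels do not say whether equal numbers share a batch, and this was not tested. The main fit has no pairing, and the replicate block is given as an alternative. With a replicate block, 8789 genes were called, including 99.9% of the 7416, and 3425 differed from the full-length protein (1637 lower, 1788 higher). In that fit 5 p53 target genes rose and 8 fell, 4 integrin and selectin genes fell, and 2 TALE genes fell.

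Small counts over lists moved with single libraries. Only 1 CC chemokine gene fell without any 1 of G-NHA9Midi replicates 3 and 5 and mutant replicates 1, 2 and 3, and 0 without G-NHA9Midi replicate 4. The single translation factor gene that rose was lost without any 1 G-NHA9Midi library except replicate 1, and without mutant replicates 1, 4 or 5. Mitochondrial ribosomal genes that rose numbered 2 without any 1 of G-NHA9Midi replicates 1, 2 and 3 and mutant replicates 3 and 4. For T and NK genes, 1 to 3 rose and 1 to 2 fell, depending on the library left out. Genes under about 1 CPM, such as most HOXB and HOXC genes, rest on too few counts for their folds to be ranked.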
